A study of Sus scrofa with 12 samples.

Results

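MGAT1, B4GALT5 and ST6GALNAC1 encode enzymes of the Golgi apparatus that add single sugars to proteins and lipids on their way to the cell surface. They were chosen by name, because earlier work on these data had shown different group patterns for them, and each matched 1 of the 31781 pig gene identifiers in the table. The levels that follow are therefore a description, with no test of the 3 genes.

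RNA was measured by Smart-Seq2, which amplifies cDNA from very small inputs, in parthenogenetically activated blastocysts of the pig (Sus scrofa). Such embryos arise from an egg that is activated without sperm, so they carry maternal genomes only. The labels define 4 groups, a fresh control (A) and 3 groups cryopreserved by vitrification, cooling so fast that the water in them turns to glass instead of ice. These are called vitrification (B), vitrification I (C) and vitrification II (H), as in the labels, which do not say how their procedures differed. The series title names liquid helium without tying it to a group, and embryo age, strain and storage time are not given. Fresh control, vitrification I and vitrification II had 3 libraries each and vitrification had 2, since its replicate 3 was not analysed here. The labels name blastocyst as the source, while the protocol describes sorted single cells, so the spread between libraries may be that between cells, and it may be technical.

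MGAT1 transfers N-acetylglucosamine to a trimmed high-mannose N-glycan, the step that opens the route to hybrid and complex N-glycans. Without it, N-glycans stay high-mannose, and mouse embryos die in mid-gestation. B4GALT5 adds galactose to glucosylceramide and so makes lactosylceramide, the precursor of gangliosides and most other glycosphingolipids. Mouse embryos that lack it die early with defects of extraembryonic tissue. ST6GALNAC1 adds sialic acid to the first N-acetylgalactosamine of a mucin-type O-glycan, which yields the sialyl-Tn antigen and prevents further extension of that glycan. The surface of the blastocyst is a trophectoderm epithelium rich in glycoproteins and glycolipids, through which the embryo later attaches to the uterus.

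The values are FPKM, fragment numbers divided by transcript length and library size, as deposited by the authors. FPKM is a level per length, so levels of different genes can be set side by side. No counts were given, so the depth behind each value is unknown. Library sums of FPKM lay between 439650 and 591894. The 13 protein genes of the mitochondrial genome held 37.6% to 43.9% of it in fresh control, 38.7% to 51.8% in vitrification, 43.8% to 64.3% in vitrification I and 16.9% to 22.1% in vitrification II. Genes above 0 numbered 15383 to 16046, 17726 to 18527, 11550 to 14039 and 15415 to 16204 in the same order. All 11 trophectoderm markers with an identifier reached an FPKM of 1 in at least 3 libraries. Their summed FPKM came mostly from the keratins KRT8 and KRT18. It was 10609 to 15736 in fresh control and 6843 to 17321 in vitrification. In vitrification I it was 2764 to 6091, and in vitrification II 14099 to 22401. The single markers were mixed in vitrification I, where KRT8, KRT18, CLDN4, ELF3 and TEAD4 lay entirely below fresh control. TFAP2A lay entirely above it, at 95.8 to 154 FPKM against 6.21 to 13.7. CDX2, GATA2, GATA3, TFAP2C and DAB2 overlapped fresh control. Inner cell mass and epiblast markers summed to 14.0 to 18.4, 15.6 to 44.6, 4.61 to 14.8 and 53.3 to 115.6 in the 4 groups. Of these 10 markers 8 were matched, and POU5F1 and SOX2 had no identifier. LIN28A was the highest of them in vitrification II, at 81.6, 45.7 and 24.5 FPKM, beside 6.44 to 9.50 in fresh control. SALL4, KLF4 and ESRRB also lay above fresh control there, while KLF17, NANOG, LIN28B and PRDM14 overlapped it. Hypoblast markers summed to 11.4 to 21.5, 23.4 to 56.4, 16.8 to 30.5 and 22.3 to 35.0, with FOXA2 at 0 in every library. Markers of cumulus and granulosa cells summed to at most 0.361 in any library. Those of leukocytes and erythroid cells summed to 1.36 to 19.5 in fresh control, 0.478 to 14.8 in vitrification, 3.11 to 3.96 in vitrification I and 2.37 to 5.67 in vitrification II, with PTPRC, the defining leukocyte marker, at 0. The part of cell composition in the results below was not tested, and fewer cells of a type cannot be told apart from less RNA per cell.

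MGAT1 (ENSSSCG00000014538) was low in fresh control and reached its highest levels in vitrification I. Its FPKM was 6.05, 3.89 and 3.52 in fresh control replicates 1, 2 and 3, and 5.69 and 9.88 in vitrification replicates 1 and 2. It was 92.6, 52.2 and 101 in vitrification I and 21.6, 27.0 and 25.4 in vitrification II. Fresh control and vitrification overlapped, while every vitrification II library lay above both and every vitrification I library lay above all others. The means were 4.49 ± 1.37, 7.78 ± 2.96, 82.0 ± 26.2 and 24.6 ± 2.78 FPKM (SD, n = 3, 2, 3 and 3), so the order was fresh control, vitrification, vitrification II and vitrification I. The vitrification I mean was 18.3 times that of fresh control and 3.33 times that of vitrification II. Of the 31781 identifiers, 9411 reached an FPKM of 1 in 3 or more libraries and were tested. Among these, MGAT1 moved from the 53.7 to 59.3 percentile of a fresh control library to the 89.6 to 95.6 percentile in vitrification I.

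B4GALT5 (ENSSSCG00000007465) had another order, with its highest levels in vitrification. Its FPKM was 5.89, 4.26 and 3.38 in fresh control and 29.5 and 49.1 in vitrification. It was 9.94, 21.4 and 11.9 in vitrification I and 10.7, 14.2 and 10.7 in vitrification II. All 8 libraries of the vitrified groups lay above the 3 of fresh control, both vitrification libraries lay above all others, and vitrification I and vitrification II overlapped. The means were 4.51 ± 1.27, 39.3 ± 13.9, 14.4 ± 6.13 and 11.9 ± 1.99 FPKM (SD, n = 3, 2, 3 and 3), which puts vitrification 8.70 times above fresh control. Vitrification I and vitrification II, neighbours in this order, differed by less than the spread between the libraries of vitrification I. The gene stood at the 53.0 to 59.8 percentile of the genes tested in fresh control, the 87.0 to 91.1 percentile in vitrification, the 72.3 to 80.6 percentile in vitrification I and the 61.0 to 67.8 percentile in vitrification II.

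ST6GALNAC1 (ENSSSCG00000017172) was high in vitrification I alone among the 4 groups. Its FPKM was 5.10, 5.07 and 12.5 in fresh control and 5.56 and 12.6 in vitrification. It was 42.5, 41.9 and 52.4 in vitrification I and 8.98, 2.95 and 3.80 in vitrification II. The 3 vitrification I libraries lay above every other library, and the remaining 8 overlapped across groups. The means were 7.55 ± 4.27, 9.10 ± 5.01, 45.6 ± 5.92 and 5.24 ± 3.26 FPKM (SD, n = 3, 2, 3 and 3), and the order of vitrification II, fresh control and vitrification did not go beyond their spread. The vitrification I mean was 6.04 times that of fresh control and 8.70 times that of vitrification II. In vitrification II the gene lay as low as the 33.4 percentile of the genes tested, and in vitrification I between the 87.7 and 92.6 percentiles.

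**Figure D1:**
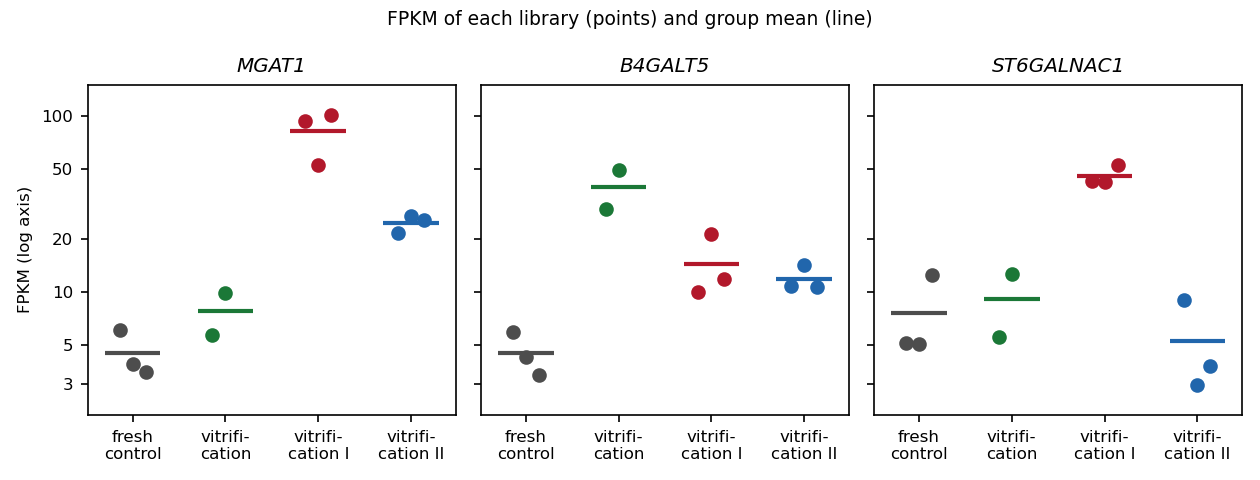
FPKM on a log axis of MGAT1, B4GALT5 and ST6GALNAC1 in each library (points) of the 4 groups, with the group mean as a line. MGAT1 and ST6GALNAC1 have their highest points in vitrification I (52.2 to 101 and 41.9 to 52.4), and B4GALT5 in vitrification (29.5 and 49.1).

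Differences between groups were set against those of all genes, because the median gene also moved. Differences are between group means of log2(FPKM + 1), ± SE from limma, a linear model that shares the estimate of spread across genes. The median difference of the genes tested was 0.19 for vitrification, -0.06 for vitrification I and 0.62 for vitrification II, each against fresh control, and 0.68 for vitrification II against vitrification I. The first 3 comparisons share the fresh control libraries, and the last shares libraries with the others. In the relative differences below the median was subtracted as a fixed value, and each SE is that of the difference before subtraction. Relative to that median, MGAT1 stood 0.48 ± 0.41 higher in vitrification, 3.95 ± 0.37 higher in vitrification I and 1.62 ± 0.37 higher in vitrification II than in fresh control. B4GALT5 stood 2.66 ± 0.42, 1.50 ± 0.38 and 0.61 ± 0.38 higher in the same order. ST6GALNAC1 stood 0.07 ± 0.50 and 2.61 ± 0.45 higher in the first 2 and at -1.09 ± 0.45 in vitrification II. The 3 genes thus differed in which group stood farthest from fresh control, vitrification I for MGAT1 and ST6GALNAC1 and vitrification for B4GALT5. In vitrification II against vitrification I the relative differences were -2.33 ± 0.37 for MGAT1, -0.88 ± 0.38 for B4GALT5 and -3.70 ± 0.45 for ST6GALNAC1. Of all genes tested 99.9% had a smaller difference than MGAT1 in vitrification I, 99.9% a smaller one than B4GALT5 in vitrification, and 99.1% a smaller one than ST6GALNAC1 in vitrification I.

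All 3 genes had vitrification I libraries entirely above those of fresh control, as did 17.3% of the genes tested. For vitrification II this held for MGAT1 and B4GALT5 and for 44% of the genes tested, and for vitrification, with 2 libraries, for B4GALT5 and 25.5%. Vitrification II lay entirely below vitrification I for MGAT1 and ST6GALNAC1, as for 7.07% of the genes tested. The genes were chosen on these contrasts, so nothing is read from these counts. The mitochondrial share of FPKM moves with the groups, and FPKM is set against a total that includes it. Rescaled to the total outside the mitochondrial genome, MGAT1 ran from 3.15 to 6.15 in fresh control, 5.49 to 12.5 in vitrification, 56.9 to 151 in vitrification I and 19.3 to 21.8 in vitrification II. B4GALT5 then ran from 3.02 to 5.99, 28.5 to 62.3, 13.5 to 23.3 and 8.63 to 11.4, and the last 2 groups no longer overlapped. ST6GALNAC1 ran from 4.38 to 11.2, 5.37 to 16.0, 45.6 to 78.2 and 2.38 to 8.02. The order of the group means was as before for each of the 3 genes.

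**Figure D2:**
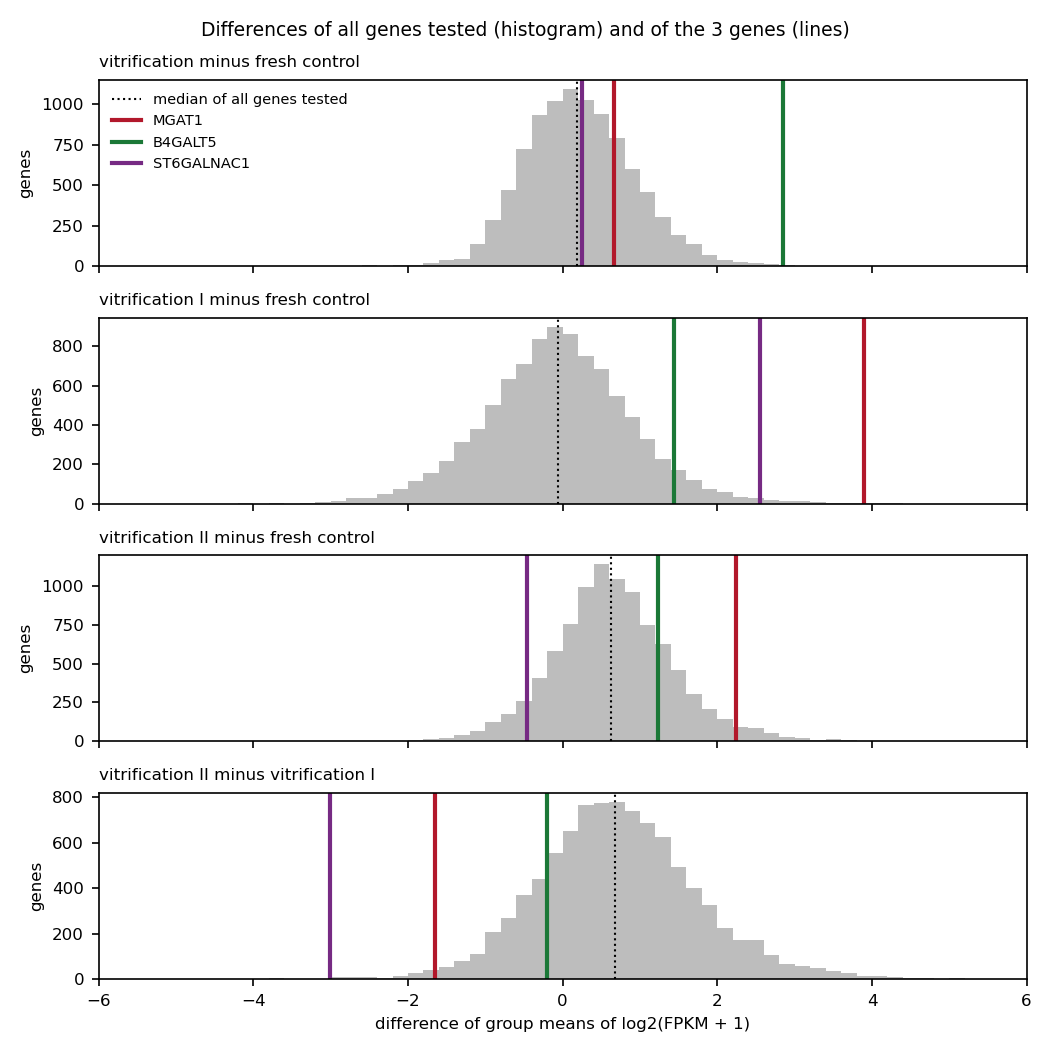
Number of genes by difference of group means of log2(FPKM + 1) in 4 comparisons (grey, 9411 genes), with the median of all genes (dotted) and the 3 glycosyltransferases (coloured lines). MGAT1 lies in the upper tail in vitrification I and B4GALT5 in vitrification, while ST6GALNAC1 lies in the upper tail in vitrification I and left of the median in vitrification II.

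Within its enzyme family each gene changed its rank or its share. Among the 8 MGAT genes, which start and branch N-glycans, MGAT1 held 12.5% to 32.4% of the summed FPKM in fresh control and 17.8% to 25.9% in vitrification. Its share was 62.7% to 80.6% in vitrification I and 45.1% to 55.1% in vitrification II, where it ranked highest of the family in every library. In fresh control MGAT2, which adds the second antenna, ranked above it, with a mean of 14.8 ± 6.91 FPKM against 4.49 ± 1.37. MGAT2 itself had 21.6 ± 14.9, 24.3 ± 18.4 and 11.8 ± 4.82 FPKM in vitrification, vitrification I and vitrification II (SD, n = 2, 3 and 3), and was not called in any of the 4 comparisons (limma adjusted p = 0.281 to 0.769). The remaining MGAT genes other than MGAT4A had group means of at most 1.01 FPKM.

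Among the 7 B4GALT genes, which add galactose to different acceptors, B4GALT5 held 9.83% to 19.2% of the summed FPKM in fresh control, 42.4% to 51.1% in vitrification, 41.8% to 47.1% in vitrification I and 9.33% to 17.8% in vitrification II. It ranked highest in every library of vitrification and vitrification I. In vitrification I its share was as high as in vitrification although its level was lower, since the other members summed to 13.2 to 24.0 FPKM there and to 40.0 to 47.0 in vitrification. In vitrification II they summed to 65.3 to 104 FPKM, with B4GALT3 at 43.5 ± 8.12 and B4GALT4 at 28.1 ± 12.6 (SD, n = 3). B4GALT6, the other lactosylceramide synthase of mammals, was at 0 to 0.108 FPKM in fresh control, vitrification and vitrification I and at 0.579 to 2.09 in vitrification II. It stayed under the filter on low values, so it was not tested.

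Among 19 sialyltransferases with an identifier, ST6GALNAC1 ranked highest in all 11 libraries. It held 37.7% to 55.6% of their summed FPKM in fresh control, 37.6% to 52.7% in vitrification, 84.1% to 94.1% in vitrification I and 27.7% to 51.7% in vitrification II. The other 18 summed to 7.59 to 9.96 FPKM in fresh control and 2.65 to 7.95 in vitrification I, so the sum without ST6GALNAC1 was not higher there. A neighbouring gene on the chromosome, ST6GALNAC2, which sialylates longer O-glycans, had 1.87 ± 0.91, 1.85 ± 0.65, 2.63 ± 1.77 and 1.06 ± 0.10 FPKM in the 4 groups. It was not called in any comparison (limma adjusted p = 0.206 to 0.989). For vitrification II against vitrification I, 2 of 18 alternatives gave a call of ST6GALNAC2. ST6GALNAC4, which sialylates an already sialylated O-glycan, fell in vitrification I, from 3.08 ± 1.34 to 0.302 ± 0.191 FPKM (log2 difference -1.60 ± 0.39, limma adjusted p = 0.0113). That call ended without fresh control replicate 3 (0.0591) and with no filter (0.0590).

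**Figure D3:**
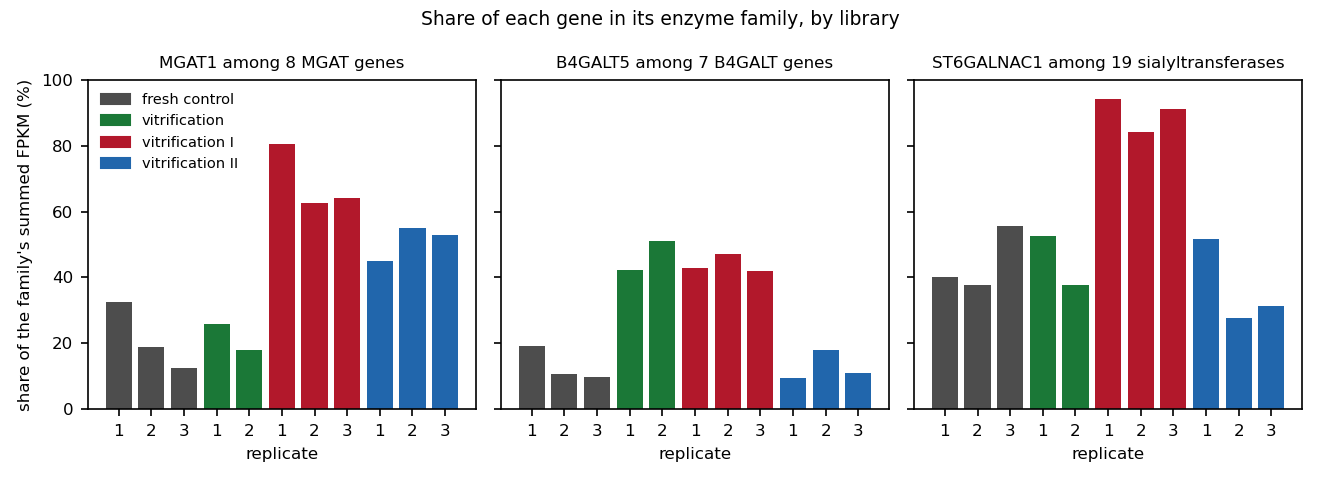
Share of each gene in the summed FPKM of its enzyme family (bars, in percent) for each library, coloured by group. MGAT1 and ST6GALNAC1 have their largest shares in vitrification I (62.7% to 80.6% and 84.1% to 94.1%), and B4GALT5 has its largest in vitrification and vitrification I (41.8% to 51.1%).

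The other glycosylation genes were read from 11 lists with 158 genes, of which 146 had an identifier and 105 passed the filter. The lists follow the routes of the 3 enzymes and were drawn up with these data known. They were tested with limma over all 9411 genes, with Benjamini-Hochberg adjustment and a call at an adjusted p under 0.05. Each p tests the fitted difference against 0, not against the median gene. In vitrification I against fresh control 14 rose and 14 fell (26.7% of 105), beside 18.6% of all genes tested (8.85% higher and 9.77% lower), and their median difference was 0.11 beside -0.06. In vitrification II 19 rose and 3 fell (21.0%), beside 25.7% of all genes (24.6% and 1.09%), with a median of 0.35 beside 0.62. In vitrification against fresh control 1 rose (0.952%), beside 1.37% of all genes (1.25% and 0.117%), with a median of 0.24 beside 0.19. At an unadjusted p under 0.05, 22 of the 105 were higher and 1 was lower there, beside 15.2% and 2.96% of all genes. In vitrification II against vitrification I 30 rose and 16 fell (43.8%), beside 38.4% of all genes (34.7% and 3.75%), with a median of 0.26 beside 0.68. Unadjusted, 27 of the 105 were higher and 25 lower in vitrification I (15.5% and 17.8% of all genes), 31 and 6 in vitrification II (37.2% and 2.48%), and 36 and 20 in vitrification II against vitrification I (42.1% and 5.51%).

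These splits of direction rested on the scaling, and those of all genes moved too. After quantile normalization the lists had 20 higher and 14 lower in vitrification I, beside 11.7% and 10.6% of all genes. They had 4 and 7 in vitrification II, beside 4.11% and 3.07%, and 11 and 32 in vitrification II against vitrification I, beside 13.6% and 14.6%. With the total outside the mitochondrial genome they had 25 and 5 (14.4% and 5.34% of all genes), 8 and 3 (12.6% and 1.22%), and 11 and 23 (16.5% and 7.54%). The vitrification I count was 10 without fresh control replicate 2, 13 without fresh control replicate 3, and 16 and 17 when replicates 1 and 3 of vitrification I were left out in turn. All genes called fell in the same fits, from 1752 to 832, 920, 1011 and 1208. The vitrification II count was 9 and 10 without those fresh control libraries and 11 without vitrification II replicate 3, where all genes called went from 2422 to 1017, 1236 and 1395. Against vitrification I it was 27 without vitrification I replicate 1 and 30 without vitrification II replicate 2, where all genes called went from 3614 to 2801 and 2768.

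**Figure D4:**
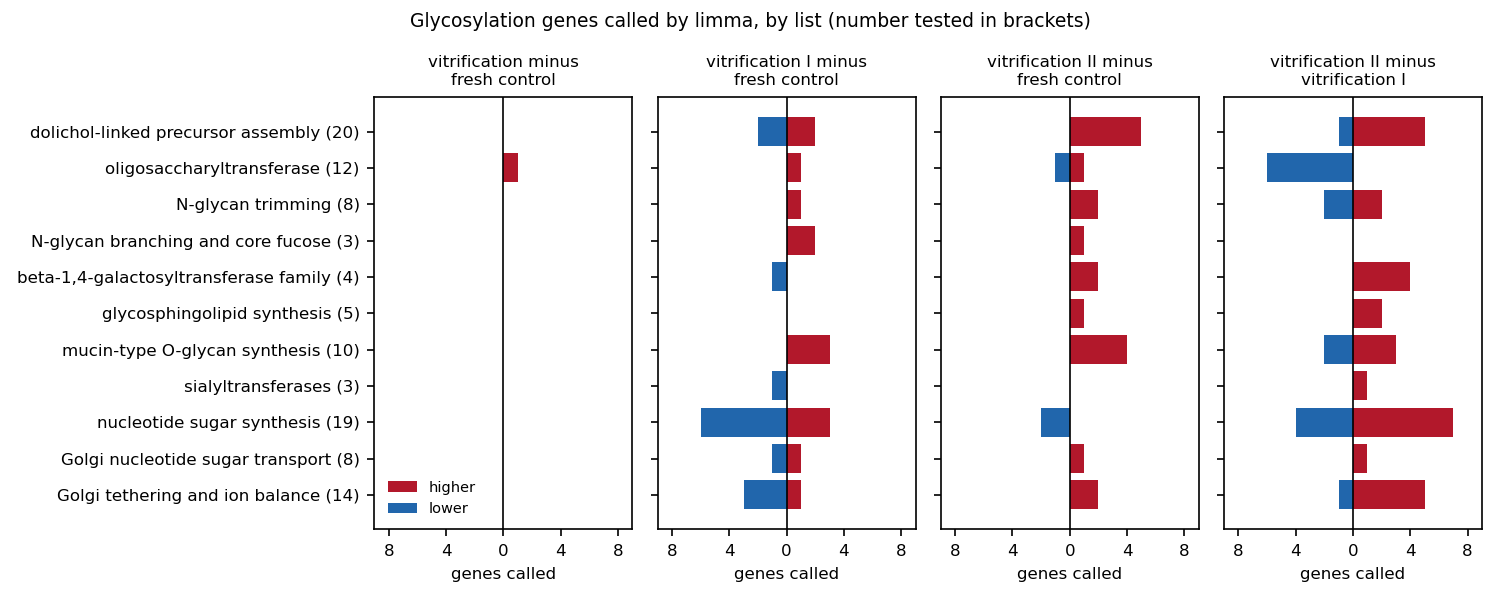
Number of genes called higher (right) and lower (left) by limma in each of 11 glycosylation lists, in 4 comparisons, with the number tested in brackets. Vitrification against fresh control has 1 call, while vitrification II against vitrification I has 30 higher and 16 lower.

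Along the N-glycan route of MGAT1, single genes rose in vitrification I. Of 8 tested trimming genes 1 rose, and of 3 tested genes of branching and core fucose 2 rose, beside 8.85% of all genes. Among both lists 0 fell by limma (9.77% of all genes) and 0 were lower at an unadjusted p under 0.05 (17.8%). Unadjusted, 3 of the 8 and 2 of the 3 were higher, beside 15.5%. In vitrification II 2 of the 8 and 1 of the 3 rose, beside 24.6% of all genes (5 and 1 unadjusted, beside 37.2%). In vitrification 0 of either list were called, while 5 of the 8 and 1 of the 3 were higher unadjusted, beside 15.2%. MAN2A1, the Golgi mannosidase that trims the product of MGAT1, had 1.30 ± 0.41 FPKM in fresh control and 17.0 ± 4.30 in vitrification I (SD, n = 3 and 3), with no overlap. It rose by 2.95 ± 0.39 on the log2 scale (adjusted p = 0.000428), and its difference in vitrification II against vitrification I was -2.11 ± 0.39 (adjusted p = 0.000971). MGAT4A, which adds a further branch, rose by 1.86 ± 0.42 in vitrification I, from 2.36 ± 0.36 to 11.2 ± 1.27 FPKM (adjusted p = 0.00764). The donor of the sugar that MGAT1 transfers is made and moved by further genes of the lists. GFPT1, which commits glucose to the hexosamine pathway, rose by 2.29 ± 0.43 (adjusted p = 0.00307), and SLC35A3, which carries UDP-N-acetylglucosamine into the Golgi, by 1.53 ± 0.36 (adjusted p = 0.0104). STT3B, a catalytic subunit of the oligosaccharyltransferase that attaches N-glycans to proteins, rose by 3.06 ± 0.47 (adjusted p = 0.000904). It was the 1 gene called of 12 tested in that list (8.33%) in vitrification I, beside 8.85% higher and 9.77% lower of all genes. The 5 calls of MAN2A1, MGAT4A, GFPT1, SLC35A3 and STT3B in vitrification I held under each of 18 alternatives. In vitrification II MGAT4A (1.55 ± 0.42), SLC35A3 (1.25 ± 0.36) and STT3B (1.41 ± 0.47) were also called higher, where the median gene moved by 0.62. Their limma adjusted p was 0.0149, 0.0218 and 0.0395, and the calls ended under 6, 6 and 8 alternatives. MAN2A1 was not called there (0.85 ± 0.39, limma adjusted p = 0.121). FUT8, which adds the core fucose after MGAT1 has acted, also rose in vitrification I (1.20 ± 0.38, adjusted p = 0.0407). That FUT8 call ended under 9 alternatives (0.0503 to 0.132). In vitrification, where MGAT1 overlapped fresh control, STT3B was the 1 gene called (log2 difference 2.41 ± 0.53, adjusted p = 0.0408). That call ended under 10 alternatives, among them leaving out vitrification replicate 2 (0.449).

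Around B4GALT5 few genes of glycosphingolipid synthesis could be tested, 5 of 12. UGCG, which makes the glucosylceramide that B4GALT5 uses, had 1.06 ± 0.56, 3.17 ± 1.03, 3.63 ± 1.95 and 2.27 ± 0.83 FPKM in fresh control, vitrification, vitrification I and vitrification II. It was not called against fresh control (limma adjusted p = 0.214, 0.0548 and 0.208), though 4 of 18 alternatives gave a call in vitrification I. ST3GAL5, which turns lactosylceramide into the ganglioside GM3, was not called either (0.634, 0.808 and 0.934). In vitrification II, B3GNT5, which extends lactosylceramide into the lacto series, rose by 2.25 ± 0.41 on the log2 scale, where the median gene moved by 0.62, from 3.71 ± 1.56 to 21.5 ± 7.28 FPKM (adjusted p = 0.00185, 0.0551 after quantile normalization). Among the other galactosyltransferases B4GALT1, which galactosylates N-glycans, rose by 2.26 ± 0.36 (adjusted p = 0.000912) and B4GALT4, which acts on sulfated glycans, by 2.40 ± 0.48 (adjusted p = 0.00336) in vitrification II. B4GALT3 fell in vitrification I (-1.54 ± 0.40, adjusted p = 0.0154). That call ended with the total outside the mitochondrial genome (0.0585), with no filter (0.0570) and without fresh control replicate 2 (0.0795), fresh control replicate 3 (0.0630) or vitrification I replicate 1 (0.0609). Of the 4 tested family members besides B4GALT5, all 4 were higher in vitrification II than in vitrification I, beside 34.7% of all genes. Under quantile normalization 2 were, beside 13.6%, and with the total outside the mitochondrial genome 2, beside 16.5%. SLC35A2, the carrier of UDP-galactose, was not called in any comparison (limma adjusted p = 0.0585 to 0.582). For vitrification II against vitrification I, 2 of 18 alternatives gave a call of SLC35A2.

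Before ST6GALNAC1 acts, a GALNT enzyme has to place N-acetylgalactosamine on the protein. GALNT1 rose in vitrification I by 2.29 ± 0.38 on the log2 scale, from 4.66 ± 1.54 to 26.3 ± 3.57 FPKM (adjusted p = 0.00132), and GALNT7 by 1.61 ± 0.38, from 4.34 ± 0.60 to 15.2 ± 0.79 (adjusted p = 0.0105). Both genes also lay entirely above fresh control in vitrification and in vitrification II, where ST6GALNAC1 overlapped fresh control. GALNT1 had 14.9 ± 8.17 FPKM in vitrification and 15.5 ± 3.07 in vitrification II (SD, n = 2 and 3). GALNT7 had 12.96 ± 9.18 and 13.9 ± 2.04 in the same order. Of all genes tested, 25.5% lay entirely above fresh control in vitrification and 44% in vitrification II. Of the 10 tested genes of mucin-type O-glycans, 3 rose and 0 fell in vitrification I by limma, beside 8.85% and 9.77% of all genes. At an unadjusted p under 0.05 the numbers were 5 and 1, beside 15.5% and 17.8%. In vitrification II, where ST6GALNAC1 was not above fresh control, 4 rose and 0 fell, beside 24.6% and 1.09% of all genes (5 and 0 unadjusted, beside 37.2% and 2.48%). After quantile normalization 1 rose, beside 4.11% of all genes, and with the total outside the mitochondrial genome 3 rose, beside 12.6%. GALNT3 rose there by 2.57 ± 0.37, from 2.35 ± 0.87 to 18.5 ± 1.40 FPKM (adjusted p = 0.000563). B3GNT3, of the mucin-type O-glycan list, stood at 3.91 ± 2.26 FPKM in fresh control, 1.32 ± 0.89 in vitrification I and 22.7 ± 4.34 in vitrification II. It was higher in vitrification II than in vitrification I by 3.43 ± 0.45, where the median gene moved by 0.68 (limma adjusted p = 0.000108). ST6GALNAC1 went the other way, while 34.7% of all genes tested were called higher in that comparison. SLC35A1, which carries the activated sialic acid into the Golgi, had 13.2 ± 9.20 FPKM in fresh control and 14.8 ± 4.77 in vitrification I and was not called in any comparison (adjusted p = 0.416 to 0.729). CMAS, which activates sialic acid, fell in vitrification II from 5.31 ± 0.56 to 1.55 ± 1.38 FPKM (log2 difference -1.45 ± 0.44, adjusted p = 0.0255). The CMAS call ended without fresh control replicate 2 (0.0863) or 3 (0.0591), without vitrification II replicate 2 (0.118) or 3 (0.0706), and with no filter (0.0962). C1GALT1, its chaperone C1GALT1C1 and ST6GALNAC6 had no identifier with that symbol.

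The genes whose pattern over the 11 libraries was most like each enzyme were found by Pearson r of log2(FPKM + 1) among 4101 genes with a symbol and a mean FPKM of at least 5. The libraries share their groups and scaling, so r is a description. For MGAT1 they were DRAM2, a lysosomal regulator of autophagy (r = 0.989), the zinc transporter SLC30A9 (0.976), the desmosomal cadherin DSG2 (0.968), the sorting nexin SNX18 (0.966) and MFSD14B (0.963). DRAM2 ran from 20.3 to 38.5 FPKM in fresh control, 208 to 401 in vitrification I and 72.5 to 92.0 in vitrification II. For B4GALT5 they were the nuclear import receptor KPNB1 (0.940), the cohesin subunit RAD21 (0.938), the Mediator kinase CDK8 (0.932), the phosphatase subunit PPP2CB (0.925) and the DNA-binding protein ARID3A (0.912). KPNB1 ran from 5.35 to 11.1 FPKM in fresh control and was at 34.1 and 37.5 in vitrification. For ST6GALNAC1 they were PIGP, of the enzyme that starts glycosylphosphatidylinositol anchors (0.941), the endoplasmic reticulum oxidase ERO1B (0.921), the retrieval receptor KDELR2 (0.919), the cargo receptor LMAN1 (0.916) and the kinase PRKCB (0.914). PIGP ran from 15.7 to 16.7 FPKM in fresh control, 67.2 to 105 in vitrification I and 10.6 to 12.4 in vitrification II.

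Genes that overlap or neighbour the 3 enzymes in the RefSeq annotation of Sscrofa11.1 were checked, since the build behind the FPKM is not given and reads of overlapping genes can be split between them. MGAT1 overlaps the zinc finger gene ZFP62 there, which had FPKM values from 0.502 to 5.69 over all libraries and was not called in any comparison (adjusted p = 0.376 to 0.980). ZFP62 stood at 2.95, 2.55 and 0.502 in vitrification I, so it was not high where MGAT1 was. MGAT1 and ST6GALNAC1 each also overlap a long noncoding RNA without a matched row, and whether their reads were counted apart was not tested. BTNL9, the nearest coding gene before MGAT1, was listed at 0 in every library. Beside B4GALT5, PTGIS reached at most 1.07 FPKM. SLC9A8, a sodium and proton exchanger on its other side, was at 0.516 to 0.686 FPKM in fresh control. In vitrification, where B4GALT5 was highest, SLC9A8 was at 0.935 and 1.18, entirely above fresh control, as were 25.5% of the genes tested. It was not called there (adjusted p = 0.616). SLC9A8 rose in vitrification II (difference 1.01 ± 0.30, where the median of all genes was 0.62, adjusted p = 0.0255), a call that ended under 8 alternatives, among them quantile normalization (0.486). It was also higher in vitrification II than in vitrification I (1.21 ± 0.30, where the median was 0.68, limma adjusted p = 0.00621). That call ended after quantile normalization (0.233) and with the total outside the mitochondrial genome (0.0588).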

How the data were processed

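The deposited table holds FPKM values by the authors, 1 column per library. Tools listed in the submitters' processing notes, without roles, are TopHat2 2.0.13, Cufflinks 2.2.1, FastQC and DESeq2. Genome build and annotation are not given in the sources used here. The table had columns for 11 of the 12 labelled samples. Of the identifiers, 15347 had a symbol in the gene name table. The 3 genes and the gene lists were chosen with earlier results of these data known.

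Values were used as log2(FPKM + 1), which understates changes of low genes. Genes that reached an FPKM of 1 in 3 or more libraries were kept. limma 3.58.1 in R 4.3.3 fitted 1 mean per group to all 11 libraries, letting the prior spread depend on the mean level, and tested 4 contrasts two-sided. Pathway genes named in the text are up to 2 called genes of each list and comparison with the largest difference and a fixed set, with the 5 most similar genes and the neighbours of each enzyme. The fit was tested on simulated data. Alternatives were 2 scalings, a pseudocount of 0.1, 2 filters, fits on 2 groups, a replicate block and leaving out each library. The labels give no batch.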

Additional observations from a re-analysis of the deposited data

How the results depend on the processing

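Counts of glycosylation genes called are given for vitrification, vitrification I and vitrification II against fresh control, then for vitrification II against vitrification I. Leaving out 1 library gave 0 to 3 in place of 1, 10 to 32 in place of 28, 9 to 27 in place of 22 and 27 to 45 in place of 46. With no filter the counts were 0, 9, 13 and 25. In fits on the 2 groups compared the first 2 were 0 and 18. Quantile normalization gave 0 for vitrification and 11 for vitrification II, and the total outside the mitochondrial genome gave 11 for vitrification II. Whether the replicate numbers pair the libraries was not settled. Deviations from a group mean sum to 0, so with 2 or 3 libraries in a group their correlations cannot decide it. Deviations of same-numbered libraries correlated at r = -0.158 to 0.143, with 2 of 15 pairs over 0.1, and the closest library of another group had the same number in 7 of 30 cases. With the replicate block the counts were 0, 25, 22 and 45.

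Of 105 alternative values of the 3 enzymes, taken before the median of all genes is subtracted, 95 moved by less than the spread between replicates and 10 by more, all through the scaling. After quantile normalization vitrification II against fresh control went from 2.25 to 1.38 for MGAT1, 1.24 to 0.36 for B4GALT5 and -0.47 to -1.23 for ST6GALNAC1. Against vitrification I the values went from -1.65, -0.20 and -3.01 to -2.41, -1.02 and -3.73, and with the total outside the mitochondrial genome to -2.27, -0.79 and -3.59. With that total MGAT1 in vitrification I went from 3.89 to 4.36. The median gene moved with these scalings. Relative to it, vitrification II against vitrification I was -2.33, -0.88 and -3.70 as reported, -2.37, -0.98 and -3.69 after quantile normalization and -2.49, -1.01 and -3.81 with the other total. The sign changed in 2 of the 105, B4GALT5 in vitrification II against vitrification I (-0.41 to 0.11 with 1 library left out) and ST6GALNAC1 in vitrification against fresh control (-0.27 to 0.78). Of 54 named calls 21 held under every alternative. With FPKM and no counts, depth sets no stated limit.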

Other observations

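Among glycosylation genes not described above, some subunits of the oligosaccharyltransferase were lower in vitrification II than in vitrification I. Of 12 genes 6 fell and 0 rose by limma, beside 3.75% and 34.7% of all genes, and 8 fell and 0 rose at an unadjusted p under 0.05, beside 5.51% and 42.1%. After quantile normalization 8 fell and 0 rose, beside 14.6% and 13.6% of all genes, and with the total outside the mitochondrial genome 8 and 0, beside 7.54% and 16.5%. MAGT1, an oxidoreductase subunit, had a log2 difference of -2.49 ± 0.49, where the median gene moved by 0.68 (adjusted p = 0.0014). In the other direction, NANP, a phosphatase of sialic acid synthesis, was higher by 2.96 ± 0.66 (adjusted p = 0.0032), and DPM2, of dolichol-phosphate mannose synthase, by 2.38 ± 0.30 (adjusted p = 8.59e-05). These 3 single-gene calls held under each of 18 alternatives.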
